A study of Sus scrofa with 35 samples.

Results

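The comparison described here set the muscle of Creole pigs against that of Large White pigs after both breeds had been exposed to heat stress (HS). Its members were the 6 Creole HS and the 6 Large White HS arrays of a series of 35, chosen by the breed and the temperature in their titles, and the 40649 probes of the deposited value table, of which 20119 (49.5%) could be given a gene symbol, for 9439 genes. Each array carried RNA from the longissimus dorsi, a fast-twitch back muscle, of 1 castrated male pig. All pigs were raised in Guadeloupe and entered a climatic room at 11 weeks of age. Thermoneutral (TN) pigs were kept at 24 °C per the labels. For HS the labels say 30 °C, while the growth protocol says 32 °C for 5 days and the study's methods also state 32 °C. Why the labels differ is not stated. By those methods HS pigs were slaughtered on different days of the exposure, which the labels do not give. The other groups were 6 Creole TN, 6 Large White TN, 6 F1 TN and 5 F1 HS arrays, where F1 is the cross of the 2 breeds. Per the study's methods the pigs were sets of littermates and each pen held 1 breed, so breed and pen cannot be told apart, and the p-values treat littermates as independent animals.

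The Creole pig is a small, slow-growing local breed of the Caribbean, and the Large White is a fast-growing, lean and white-coated commercial breed. On an array a transcript is read through 60-base probes, and a probe binds a transcript that does not match it less well. Whether the breeds differ in sequence under a probe was not tested. In muscle, heat is known for calling on heat shock proteins, which refold damaged proteins, and for lowering feed intake and with it fuel use and growth.

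The 12 HS arrays were of similar quality in both breeds. The 75th percentile of the unnormalised intensity ran from 470.9 to 785.4, and the share of probes above background from 63.9% to 75.9%. Brightness, the share of probes above background and local background each differed between breeds by less than the SD of either group. The 6 bright spike-in controls read 0.105 log2 higher in Creole, with an SD of 0.135 in Creole and 0.085 in Large White. None of these 4 differences was significant (exact two-sided permutation tests over 924 regroupings, p between 0.130 and 0.955, adjusted over 4 measures 0.519 to 0.955). No 2 of these arrays were identical (r between 0.967 and 0.994 across probes, which are not independent). On the first principal component, with 40.4% of the variance, Creole HS array 1 and Large White HS array 5 stood farthest from the rest, 1 of each breed. The muscle label fitted its markers: 9 of the 10 listed skeletal muscle genes were measured and their mean log2 intensity per array was 17.72 to 18.11 in Creole HS and 17.76 to 18.00 in Large White HS.

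Under heat stress 116 of 40649 probes (0.285%) differed between the breeds at an adjusted p below 0.05, 48 higher (0.118%) and 68 lower (0.167%) in Creole. They held 112 distinct sequences. Of these calls, 50 probes carried a symbol and belonged to 40 genes, among them the receptors KIT and EDNRB, which were lower in Creole, and the transcription factor USF1 and the phosphatase DUSP12, which were higher. The median size of a called difference was 0.82 log2, 48 probes differed by more than 1 log2, and over all probes the median difference was 0.00 and its median size 0.09. In 79 of the called probes (68.1%) the 6 Creole and 6 Large White values did not overlap at all, which held for 0.699% of all probes. On the 4 slides that held both groups the sign was the same in 110 called probes (94.8%), against 16.1% of all probes. Both shares describe the same arrays on which the probes were called, so high values are built in by that selection. The count fell to between 70 and 76 when Large White HS array 2, 3 or 4 or Creole HS array 2 or 4 was left out. With arrays scaled to the spike-in controls instead, the median difference of all probes moved to -0.11 and the split to 19 higher and 104 lower, and 75 of the 116 probes were still called.

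The sequences of 8 probes that the results turn on are printed here as deposited, 5′ to 3′, since a call belongs to a 60-base probe before it belongs to a gene. The KIT pair overlaps by 57 bases, which are in capitals in the first of them, and both probes were lower in Creole. The USF1 pair shares no stretch of 15 bases, and both probes read higher in Creole. In the custom SELENOF probe the capitals mark 21 bases that it shares with another SELENOF probe, which was not called.
KIT probe 1: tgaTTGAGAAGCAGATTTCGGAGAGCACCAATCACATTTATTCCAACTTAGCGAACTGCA
KIT probe 2: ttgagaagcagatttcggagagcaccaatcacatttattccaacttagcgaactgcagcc
USF1 probe, called: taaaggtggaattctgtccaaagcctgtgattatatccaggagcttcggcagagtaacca
USF1 probe, not called: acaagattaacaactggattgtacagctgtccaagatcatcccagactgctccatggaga
PARVB probe: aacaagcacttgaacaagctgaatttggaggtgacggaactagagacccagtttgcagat
OAZ3 probe: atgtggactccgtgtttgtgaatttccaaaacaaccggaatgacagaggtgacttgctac
SLA-3 probe: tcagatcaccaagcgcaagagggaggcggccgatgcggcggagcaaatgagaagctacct
SELENOF custom probe: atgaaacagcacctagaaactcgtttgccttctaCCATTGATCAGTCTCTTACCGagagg

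The largest called difference by a gene's brightest probe was that of KIT, the receptor tyrosine kinase for stem cell factor, which melanocytes, mast cells and the pacemaker cells of the gut depend on and which is a known coat colour gene of white pigs. Its brightest probe read 7.50, 7.77 and 8.40 log2 (lowest, median and highest array) in Creole HS and 9.19, 9.58 and 10.03 in Large White HS. Every Creole array lay below every Large White array. The difference was -1.82 log2 (SE 0.26, limma adjusted p = 0.000190), or 3.54-fold lower in Creole. All 5 KIT probes were called in the same direction, with differences from -1.82 to -0.85. They were not 5 independent readings, since 2 of them had the same 60 bases and the KIT pair printed above shared 57. On that pair only 1 of the 6 Creole arrays was well above background against 6 of 6 Large White arrays. KIT was the only gene with at least 3 probes of which at least 75% were called. The listed mast cell genes other than KIT did not follow it: MS4A2, a chain of the IgE receptor, read 0.43 higher in Creole (adjusted p = 0.469), HDC 0.10 and GATA2 0.05, none of them called.

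EDNRB, the endothelin receptor that melanocytes and enteric nerve precursors also require, was lower in Creole as well. Its values ran from 5.91 through a median of 6.32 to 6.60 in Creole HS and from 7.05 through 7.28 to 7.70 in Large White HS, without overlap. The difference was -1.02 log2 (SE 0.19, adjusted p = 0.00616). The other EDNRB probe read -0.73 and was not called (adjusted p = 0.223). At 24 °C the same probe differed by -0.50 (adjusted p = 0.209), and the change of the difference between environments, -0.52 (SE 0.27), had an unadjusted p of 0.0611 and an adjusted p of 0.9998. KIT and EDNRB were 2 of 16 measured genes on a list of loci known to vary between pig breeds, where 0.233% of all genes were called by their brightest probe. The others on it were not called. They included IGF2 (-1.51, limma adjusted p = 0.217), described below, and PPARD (0.58), the highest member of the list. Smaller differences were those of MC1R (0.04), the myostatin gene MSTN (0.22), PLAG1 (-0.05), LCORL (-0.05) and RYR1 (-0.21). The list had a median of -0.04. Of its 16 genes, 4 had an unadjusted limma p below 0.05, against 7.28% of all genes. This list was chosen with earlier results of these data known, KIT and IGF2 among them, so neither share is a test of breed loci.

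**Figure D1:**
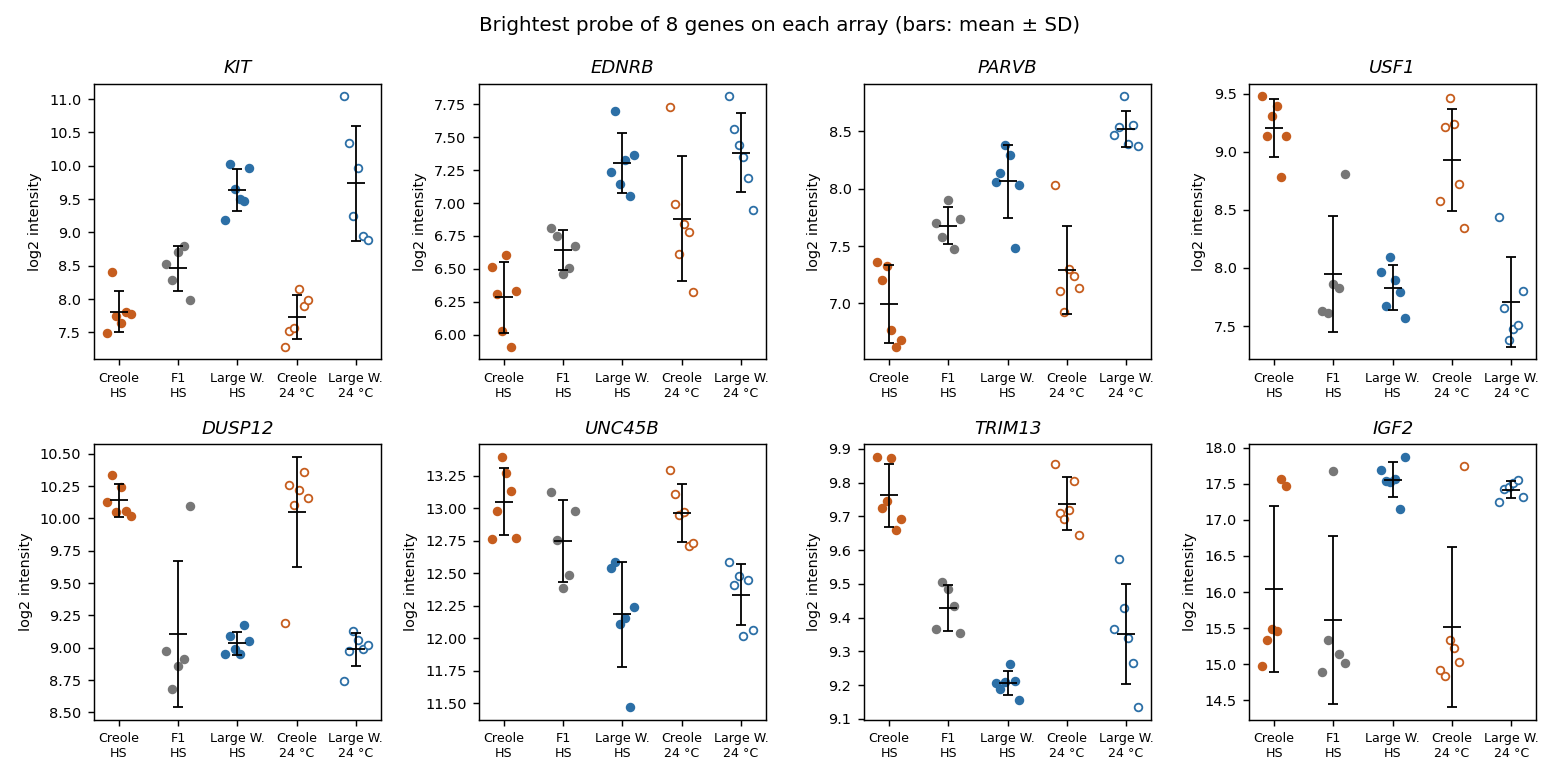
Log2 intensity (vertical axis) of the brightest probe of 8 genes on each array of 5 groups, with black bars for the mean ± SD; filled points are heat stress and open points 24 °C. KIT, EDNRB and PARVB lie lower and USF1, DUSP12, UNC45B and TRIM13 higher on all Creole HS arrays than on any Large White HS array, F1 array 5 sits at the Creole level for USF1 and DUSP12, and IGF2 has 2 Creole HS arrays at the Large White level.

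Other genes with a lower brightest probe in Creole HS had roles in adhesion, RNA turnover, lipids and sugar chains. PARVB (parvin beta, which links integrins to actin) had a lowest, median and highest value of 6.62, 6.99 and 7.36 in Creole HS and of 7.48, 8.10 and 8.38 in Large White HS. The groups came close at their nearest arrays but did not overlap, and the difference was -1.07 (SE 0.21, adjusted p = 0.0109). DCPS, the enzyme that breaks down cap structures left by mRNA decay, stood at 8.20, 8.67 and 9.48 in Creole HS and at 9.96, 10.13 and 10.28 in Large White HS. Its difference of -1.35 (SE 0.29, adjusted p = 0.0288) came with a wider spread in Creole (SD 0.50) than in Large White (SD 0.12), and its other probe read 0.21. PNPLA4, a lipid hydrolase, differed by -1.08 (7.91 ± 0.52 against 8.99 ± 0.36, SD, n = 6 each; limma adjusted p = 0.0283). PPP6R3, a regulatory subunit of protein phosphatase 6, was lower on every Creole array, with 7.48 to 7.63 against 7.91 to 8.43 (-0.69, SE 0.11, adjusted p = 0.00107). FUT8, which adds core fucose to glycoproteins, differed by -0.76 (SE 0.17, adjusted p = 0.0370), with 2 of its 3 probes called. C17orf49 differed by -0.73 (SE 0.17, adjusted p = 0.0412). Arrays of the 2 breeds did not overlap for any of these 6 genes.

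On the higher side the largest called difference by a brightest probe was that of USF1. It encodes a helix-loop-helix factor that binds E-boxes of lipid and glucose genes. Its brightest probe read 8.78, 9.22 and 9.48 in Creole HS and 7.57, 7.84 and 8.09 in Large White HS, again without overlap. The difference was 1.38 log2 (SE 0.22, adjusted p = 0.00133), a 2.59-fold higher level in Creole. All 5 USF1 probes read higher, from 0.52 to 1.38, and 3 were called, 2 of them with the same sequence. DUSP12, a phosphatase, read 10.02 to 10.34 in Creole HS against 8.95 to 9.17 in Large White HS, a difference of 1.11 (SE 0.19, adjusted p = 0.00284), and both of its probes were called.

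DUSP12 and USF1 lie near each other, with 26 annotated protein-coding genes between them on the same chromosome of the reference gene table (Sscrofa11.1). Of the genes in between, 19 had a probe and none of these was called by its brightest probe, with differences from -0.65 to 0.35. On single arrays the 2 genes moved together in some cases and not in others. F1 HS array 5 read 8.81 for USF1, while the other F1 HS arrays read 7.61 to 7.86. For DUSP12 the same array lay within the Creole HS range, while the others read 8.68 to 8.98. Creole TN array 1 read 9.19 for DUSP12, below the 10.11 to 10.36 of the other Creole TN arrays, and 8.58 for USF1, the second lowest of its group. Creole TN array 6 was the lowest of its group for USF1 (8.35) but read 10.16 for DUSP12. Large White TN array 1 was the highest of its group for USF1 (8.43, others 7.38 to 7.80) and the lowest for DUSP12 (8.74). Of the called genes, 5 pairs had at most 50 genes between them. The others were the adjacent pair COPS8 (0.53) and COL6A3 (-0.69), which went opposite ways, the adjacent pair RIC8A (-0.31) and SIRT3 (-0.50), which went the same way, PNPLA4 (-1.08) and PRPS2 (-0.67) with 14 genes between them, both lower, and CCDC25 (1.12) and STC1 (-0.60) with 23 between them and opposite signs. These pairs were chosen after their values were seen.

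UNC45B, the muscle chaperone that folds the myosin head, was higher in Creole HS. Its values were 12.76, 13.06 and 13.40 in Creole HS and 11.47, 12.20 and 12.59 in Large White HS, without overlap, and the difference was 0.87 (SE 0.16, adjusted p = 0.00780). The 3 UNC45B probes did not read alike, since the others gave 0.57 (adjusted p = 0.207) and -0.07. TRIM13, a ubiquitin ligase of the endoplasmic reticulum, had a small but tight difference of 0.56 (9.76 ± 0.09 against 9.21 ± 0.03, SD, n = 6 each; limma adjusted p = 2.63e-05). Of the 3 TRIM13 probes, all of positive sign, only 1 was called, and the lowest read 0.06. The ubiquitin ligase RNF216 (0.70, adjusted p = 0.00126) also had no overlap between breeds, and neither had ADI1 of the methionine salvage pathway (0.59, adjusted p = 0.0334). WDR3, which takes part in ribosome assembly, differed by 0.84 (adjusted p = 0.0313) and the mitochondrial nuclease ENDOG by 0.63 (adjusted p = 0.0490), both with arrays that overlapped. For WDR3, 3 of its 5 probes had the opposite sign. The other ENDOG probe read 0.14 (limma adjusted p = 0.917).

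Of the 16 genes named so far by their brightest probe, 9 kept their call when any 1 of the 12 HS arrays was left out: KIT, PARVB, EDNRB, PPP6R3, USF1, DUSP12, UNC45B, RNF216 and TRIM13. The calls of the other 7 were less firm. ENDOG lost its call in 11 of the 12 leave-one-out fits (highest adjusted p = 0.129), DCPS in 9 (0.102), C17orf49 in 9 (0.155), WDR3 in 8 (0.101), FUT8 in 8 (0.103), ADI1 in 7 (0.104) and PNPLA4 in 6 (0.0972). Their sign was the same in all of these fits. Under spike-in scaling DUSP12 (adjusted p = 0.0536), RNF216 (0.0620) and TRIM13 (0.233) were not called, and with the 12 HS arrays alone UNC45B was not (0.0997). With the slide as a fixed block DCPS (adjusted p = 0.0508), FUT8 (0.0614) and ENDOG (0.126) were not called.

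Across all genes, 22 of 9437 were called by their brightest probe (0.233%), 9 higher (0.0954%) and 13 lower (0.138%), and 18 more only by a dimmer probe. The rest of the 22, outside the naming rule, were COPS8 (0.53), a subunit of the COP9 signalosome, the hormone gene STC1 (-0.60), CCDC17 (-0.63), NIF3L1 (-0.37), the homeobox gene PBX2 (-0.35) and RIC8A (-0.31), a chaperone of G protein subunits. All 3 STC1 probes read lower (-0.60 to -0.51), but only 1 was called, and another with the same 60 bases was not. Of the 40 genes, 6 were called by at least 2 probes, 10 had a single probe, and 8 had another probe of the opposite sign. None was called in both directions.

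**Figure D2:**
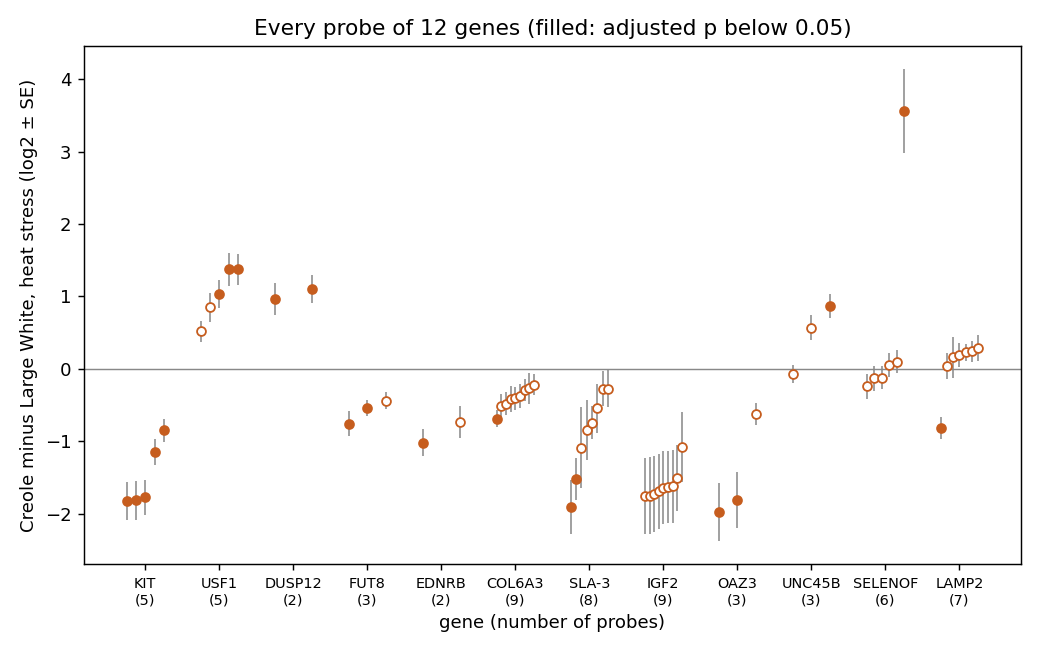
Creole minus Large White difference under heat stress (log2, ± SE, vertical axis) for every probe of 12 genes on the horizontal axis, with the number of probes in brackets; filled points passed an adjusted p of 0.05. All KIT, USF1, COL6A3, SLA-3 and IGF2 probes keep to 1 side of 0, while in SELENOF and LAMP2 a single called probe stands apart from the rest.

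The probes of a gene disagreed most in SELENOF, a selenoprotein of the endoplasmic reticulum. Its custom probe, printed above, had the largest positive difference of all called probes with a symbol. It could not be mapped to a genome here, so its assignment to SELENOF rests on the name in the file. It read 8.91, 9.48 and 10.04 in Creole and 5.47, 5.85 and 6.68 in Large White, where only 4 of 6 arrays were well above background. The difference was 3.56 log2 (SE 0.58, adjusted p = 0.00125). The other 5 SELENOF probes, all well above background on each HS array, ran from -0.24 to 0.10 and none was called, including those that share 21 and 20 bases with it. Of the 5 F1 HS arrays, 3 read 9.03 to 9.24 on the custom probe and 2 read 5.51 to 5.73, so that the F1 animals fell at both parental levels. LAMP2, a lysosomal membrane protein, had 1 probe at -0.82 (adjusted p = 0.00780) and 6 probes of positive sign. COL6A3, a collagen VI chain of the muscle matrix, had 9 probes that were all lower in Creole, 1 of them called (-0.69, adjusted p = 0.00139).

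OAZ3, a member of the antizyme family that restrains polyamine synthesis, was lower in Creole by all 3 probes, and the 2 called ones had the same 60 bases. The OAZ3 probe printed above read 5.11 to 5.58 in Creole HS, where 2 of 6 arrays were well above background. In Large White HS 5 arrays read 7.41 to 7.81 and array 6 read 5.60, at the Creole level. The difference was -1.98 (SE 0.40, adjusted p = 0.0180). The brightest OAZ3 probe gave -0.63 (adjusted p = 0.0667). SLA-3, a classical MHC class I heavy chain that presents peptides to T cells, was lower by all 8 probes, of which 2 were called (-1.90, adjusted p = 0.0119, and -1.52, adjusted p = 0.0103). On the probe printed above Creole arrays reached from 8.83 to 11.13 and Large White arrays from 10.88 to 12.30, with an overlap. The class I genes of the pig are near-identical copies and differ between haplotypes, so these readings cannot be assigned to SLA-3 alone.

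Other genes called by a dimmer probe only were named after their values were seen. Higher in Creole HS were AWN (1.80, adjusted p = 0.0320), the ciliary protein gene LZTFL1 (1.49), RGP1 (1.18), CCDC25 (1.12) and the peroxisomal enzyme HSD17B4 (0.73). Lower were the RNA-binding protein RBM38 (-1.16), the organic anion transporter SLCO2B1 (-1.12), the nucleotide synthesis enzyme PRPS2 (-0.67), the cholesterol esterifying enzyme LCAT (-0.58) and the mitochondrial deacetylase SIRT3 (-0.50). For RGP1, HSD17B4 and RBM38 other probes had the opposite sign. The other probe of LZTFL1 read only 0.04 and that of CCDC25 0.15, and neither was called.

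Probes without a symbol made up 66 of the 116 calls and included some of the most extreme. The lowest of all, TC592761, is described in the file as similar to CCDC17. It read 5.50, 5.55 and 7.77 in Creole HS and 8.04, 8.88 and 9.29 in Large White HS, a difference of -2.75 (SE 0.37, adjusted p = 0.000110). The probe of CCDC17 itself gave -0.63. LOC100515656 had the smallest p of the comparison, with 8.62 to 8.88 in Creole and 9.71 to 9.86 in Large White (-1.10, SE 0.09, adjusted p = 1.20e-09). A pair of probes described as Protease was higher in Creole by 2.42 and 1.99, a description that could not be checked against a genome here. By shared sequence of at least 25 bases, 4 of the unnamed probes could be tied to named genes, PBX2, COL6A3, PNPLA4 and PARVB, each with the sign of its gene. For 2 unnamed probes 1 breed had no array well above background, so that their folds are bounds. TC542040 was at least 1.24-fold higher (adjusted p = 0.0374) and TC620965 at least 1.52-fold lower in Creole (adjusted p = 0.0113).

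The same breeds were compared at 24 °C on other arrays, whose means did not enter the heat stress difference but whose spread entered its variance, as the fit covered all 35 arrays. There 404 probes were called (0.994%), 237 higher and 167 lower in Creole. All 116 probes called under heat stress had the same sign at 24 °C, against 62.5% of the other probes, and 103 of them (88.8%) had an unadjusted p below 0.05 there, against 13.1% of all probes. The calls in common numbered 70, which is 60.3% of the heat stress calls and 17.3% of the 24 °C calls. Per the study's methods each litter was divided over pens of both temperatures, so pigs at 24 °C were littermates of pigs under heat stress. The 2 comparisons are therefore not independent, and the part of litter in their agreement was not tested. Across the 116 probes the 2 differences had a Pearson r of 0.963, given as a description, since probes are not independent and the members were selected on the heat stress values. The median ratio of the 24 °C to the heat stress difference was 0.871. KIT (-2.01), USF1 (1.22), DUSP12 (1.06), PARVB (-1.23), DCPS (-1.44), PNPLA4 (-1.14), PPP6R3 (-0.71), FUT8 (-0.78), RNF216 (0.63), WDR3 (0.90) and TRIM13 (0.39) were called at 24 °C too. UNC45B (0.63, adjusted p = 0.0526), ADI1 (0.43), C17orf49 (-0.52), EDNRB (-0.50) and ENDOG (0.27) were not.

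**Figure D3:**
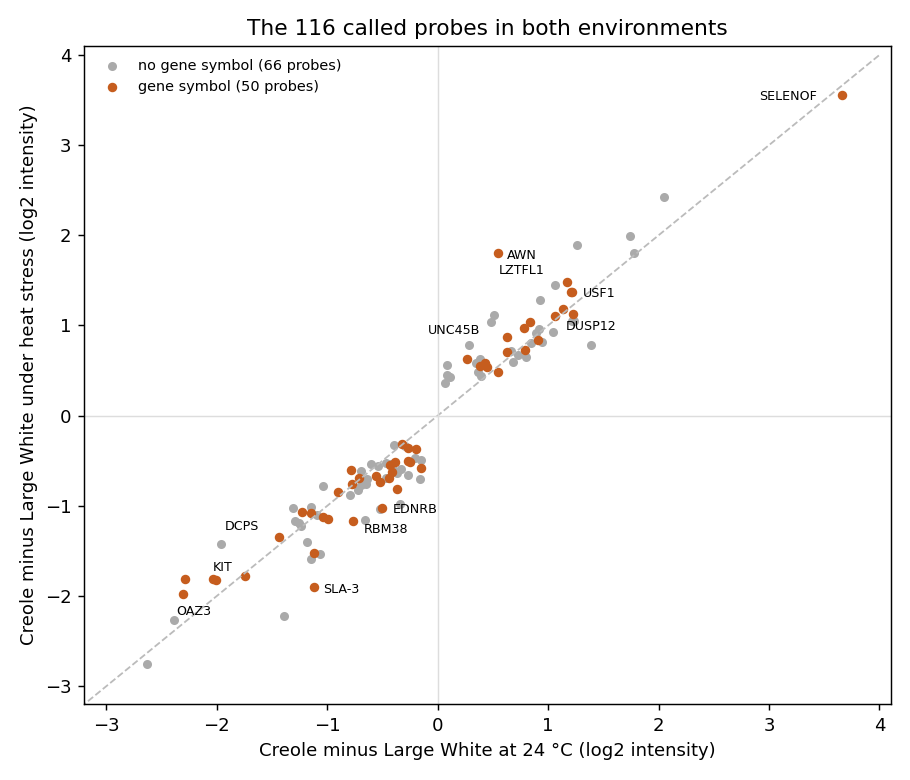
Creole minus Large White difference (log2) of the 116 probes called under heat stress, at 24 °C on the horizontal axis and under heat stress on the vertical axis, with the line of equality dashed. All points lie in the quadrants of equal sign, with SELENOF at 3.66 and 3.56 and AWN, at 0.55 and 1.80, above the line.

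Whether a breed difference belonged to the heat challenge was tested directly, as the difference under heat stress minus that at 24 °C. No probe passed an adjusted p of 0.05 with limma (0 of 40649, smallest adjusted p = 0.9998), while 1205 probes (2.96%) had an unadjusted p below 0.05. Among the 116 calls, 13 had one. These probes were selected on the heat stress difference, which is part of this test, so their share is raised by that selection. The 3 genes with the smallest unadjusted p for this test were MLKL, TCP11L1 and MTRR, none of them significant after adjustment. MLKL, the executioner of necroptosis, read 6.25 to 6.85 in Creole HS and 5.30 to 6.16 in Large White HS (0.80, adjusted p = 0.136), and -0.43 at 24 °C. TCP11L1 went from -0.49 at 24 °C to 0.23, and MTRR, which reactivates methionine synthase, from 0.32 to -0.17.

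The crossbred F1 pigs under heat stress gave a further reading. Their means did not enter the contrast, although their spread entered its variance, and without the F1 arrays 91 probes were called. For 112 of the 116 probes (96.6%) the F1 HS mean lay between the 2 parental means, against 30.3% of all probes. Called probes have parental means that lie far apart, which by construction leaves more room between them than other probes have. On a scale where 0% is the Large White and 100% the Creole mean, the median F1 position was 49.5%. It lay between 25% and 75% for 77 probes, at 25% or below for 23 and at 75% or above for 16. KIT stood at 64.5%, with EDNRB and UNC45B within 1 percentage point of it, and PARVB at 36.1%. RNF216 (92.1%) and DCPS (91.9%) were near the Creole level. For DCPS this is a mean over widely spread F1 HS arrays, from 7.98 to 9.80, against 8.20 to 9.48 in Creole HS. DUSP12 (6.38%) and USF1 (8.65%) were near the Large White level, even with F1 array 5 included.

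**Figure D4:**
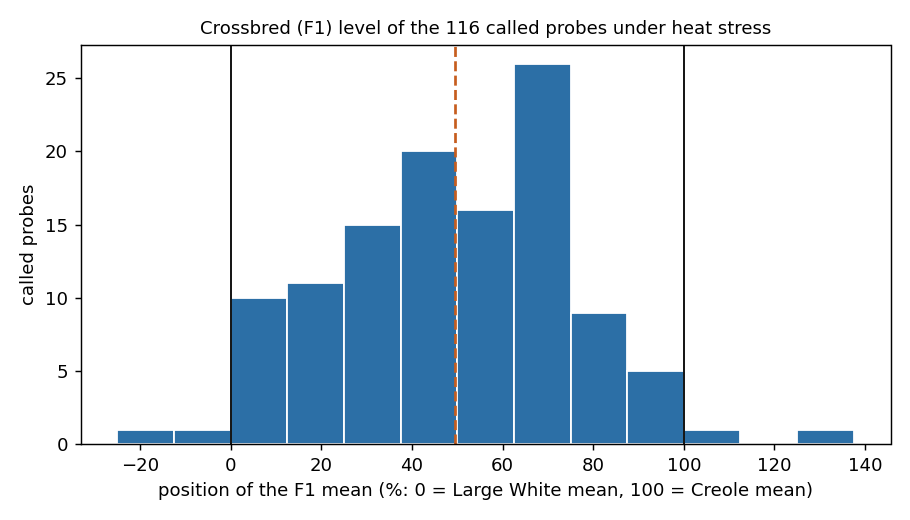
Number of called probes (vertical axis) by the position of the F1 HS mean between the Large White HS mean (0%) and the Creole HS mean (100%) on the horizontal axis; the dashed line is the median, 49.5%. Most probes lie between the solid lines at the parental means, and the range is -12.9% to 126.6%.

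IGF2, a fetal and muscle growth factor whose regulatory variants are known to differ between pig breeds, was not called under heat stress but showed the widest gap among the growth factor genes. Creole HS arrays 1 to 4 read 14.98 to 15.48, Creole HS arrays 5 and 6 read 17.56 and 17.46, and all Large White HS arrays read 17.15 to 17.87. The values thus fell at a low and a high level within Creole, and the high Creole arrays overlapped Large White. The mean difference was -1.51 (SE 0.45, adjusted p = 0.217), with 9 of 9 probes lower. The F1 HS arrays split the same way, with 4 at 14.90 to 15.34 and 1 at 17.68. At 24 °C, where 1 of 6 Creole arrays was high, the difference was -1.90 (adjusted p = 0.0323). Among 23 measured genes of growth factor and insulin-like growth factor signalling 19 were lower in Creole and none was called, with a median of -0.17. The cytokine signalling brake SOCS3 read -1.37 (adjusted p = 0.599) and the binding protein gene IGFBP6 -0.43 (adjusted p = 0.381).

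No gene on the heat shock list was called between the breeds. The called myosin chaperone gene UNC45B, described above, is not on that list. Of 42 listed heat shock proteins and co-chaperones 36 were measured, 19 read higher and 17 lower in Creole, with a median of 0.03, against 0.01 over all 9437 genes. Under spike-in scaling that list median was -0.10, with all probes at -0.11. HSPA8, the constitutive cytosolic chaperone, read 15.88, 16.12 and 16.35 in Creole HS and had a median of 16.17 and a highest value of 16.39 in Large White HS, with wide overlap (-0.08, SE 0.13). HSP90AA1 (-0.19), HSP90AB1 (0.15) and HSPH1 (0.10) also differed by less than 1 SD of the arrays. HSPB1, a small heat shock protein, read 0.46 higher (SE 0.19, adjusted p = 0.547). The nearest to a call was HSPA4, at 9.41 ± 0.21 against 8.79 ± 0.09 (SD, n = 6 each, limma adjusted p = 0.0654). It was the only 1 of the 36 measured genes whose arrays did not overlap, which held for 0.699% of all probes.

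On the lists of fuel use genes no member was called by its brightest probe. In the lists of nuclear-encoded respiratory chain subunits (52 measured genes), mitochondrially encoded subunits (13), TCA cycle and pyruvate dehydrogenase (22), glycolysis and glycogen use (29) and fatty acid oxidation (32), none was called and the medians lay between -0.04 and 0.01. The nearest were the complex I subunit NDUFC1 (0.46, adjusted p = 0.100) and the fatty acid receptor PPARD (0.58, adjusted p = 0.190). The PDH kinase PDK4 gave -1.28 (SE 0.85), with values from 9.95 to 14.09 in Creole and 11.67 to 14.16 in Large White that overlapped widely. The fast fibre list of 15 measured genes held PARVB, which is no fibre type gene and was its single called member. Parvalbumin (PVALB), a fast fibre gene on the same list, read 0.38 (adjusted p = 1.00). Of 14 slow fibre genes none was called and the median was -0.01, against -0.34 at 24 °C, with MYH7, the slow myosin heavy chain, at -0.01 (SE 0.11). PRKAG3, the AMPK subunit of glycolytic muscle, read 0.10 by its brightest probe, and its other 2 probes read 0.48 (adjusted p = 0.235) and 1.67 (adjusted p = 0.131). Of 29 antioxidant enzymes none was called, although MGST2, a microsomal glutathione transferase, read 12.54 ± 0.38 against 11.09 ± 0.49 (1.45, SE 0.38; n = 6 each; limma adjusted p = 0.116) without overlap. SOD2 read -0.40 by its brightest probe (adjusted p = 0.360). Its 9 probes ran from -2.11 to 0.02, 7 of them lower in Creole, and none was called. The respiratory carrier CYCS read -0.29 by its brightest probe. The 14 CYCS probes were split evenly by sign and none was called. One of them read 14.10 ± 0.37 in Creole and 10.70 ± 2.86 in Large White (SD, n = 6 each), a difference of 3.40 (limma adjusted p = 0.143) with a wide spread in Large White. NPSR1, a neuropeptide receptor, read 1.76 higher by its brightest probe (adjusted p = 0.103), with 5 Creole arrays at 7.04 or above and the sixth at 5.49, the level of Large White.

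The lists with the lowest medians were those of connective tissue and vessels, with no member called by its brightest probe. COL6A3, a matrix gene, had the called dimmer probe described above. In a mixed tissue fewer cells of a type and less RNA per cell cannot be told apart. Of 28 collagen and matrix genes 25 read lower in Creole HS, with a median of -0.21, and 7 had an unadjusted p below 0.05, against 7.28% of all genes. The mean over the list was 11.76 to 11.98 on the Creole HS arrays and 12.01 to 12.14 on the Large White HS arrays, without overlap. LAMC1, a laminin chain of the basement membrane, read -0.52 (adjusted p = 0.0667), COL3A1 -0.33, COL1A1 -0.29, LUM -0.26 and LOX, which crosslinks collagen, 0.07. The 11 LUM probes ran from -0.41 to 1.23, with 8 lower and 3 higher in Creole, and none was called. All 9 fibroblast markers read lower (median -0.28), with array means of 12.48 to 12.79 in Creole and 12.67 to 12.98 in Large White, which overlapped; 5 of these 9 are also on the matrix list, and the part of fibroblast content in the matrix values was not tested. At 24 °C the medians of these 2 lists were -0.27 and -0.39. Of 8 endothelial markers 7 read lower (median -0.19), with the VEGF receptor KDR lowest (-0.88, adjusted p = 0.101). Under spike-in scaling the medians were -0.35 for the matrix list, -0.41 for fibroblast and -0.34 for endothelial markers, with all probes at -0.11.

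Immune lists had medians near 0 under heat stress. The 18 leukocyte markers had a median of -0.05, with LYZ at 0.16 (SE 0.89), and array means of 8.94 to 10.25 in Creole and 8.85 to 10.31 in Large White. The 25 interferon-stimulated genes had a median of 0.07, the 16 MHC class I and peptide loading genes -0.05 and the 9 MHC class II genes 0.00. At 24 °C the medians were -0.49 for leukocyte markers, -0.25 for interferon-stimulated genes, -0.21 for MHC class I and -0.14 for MHC class II, and whether these lists differed between environments was not tested. XAF1 was the lowest interferon-stimulated gene (-1.18, adjusted p = 0.127). The remaining lists were adipocyte markers (8 genes, -0.06), adipogenic and lipogenic genes (17, 0.02), blood cell markers (5, -0.03), circadian clock genes (14, 0.00), immediate-early and glucocorticoid-responsive genes (20, 0.01), myogenic and regeneration genes (17, 0.03), nerve and Schwann cell markers (8, 0.02) and proteolysis and atrophy genes (18, -0.03). None of their members was called.

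**Figure D5:**
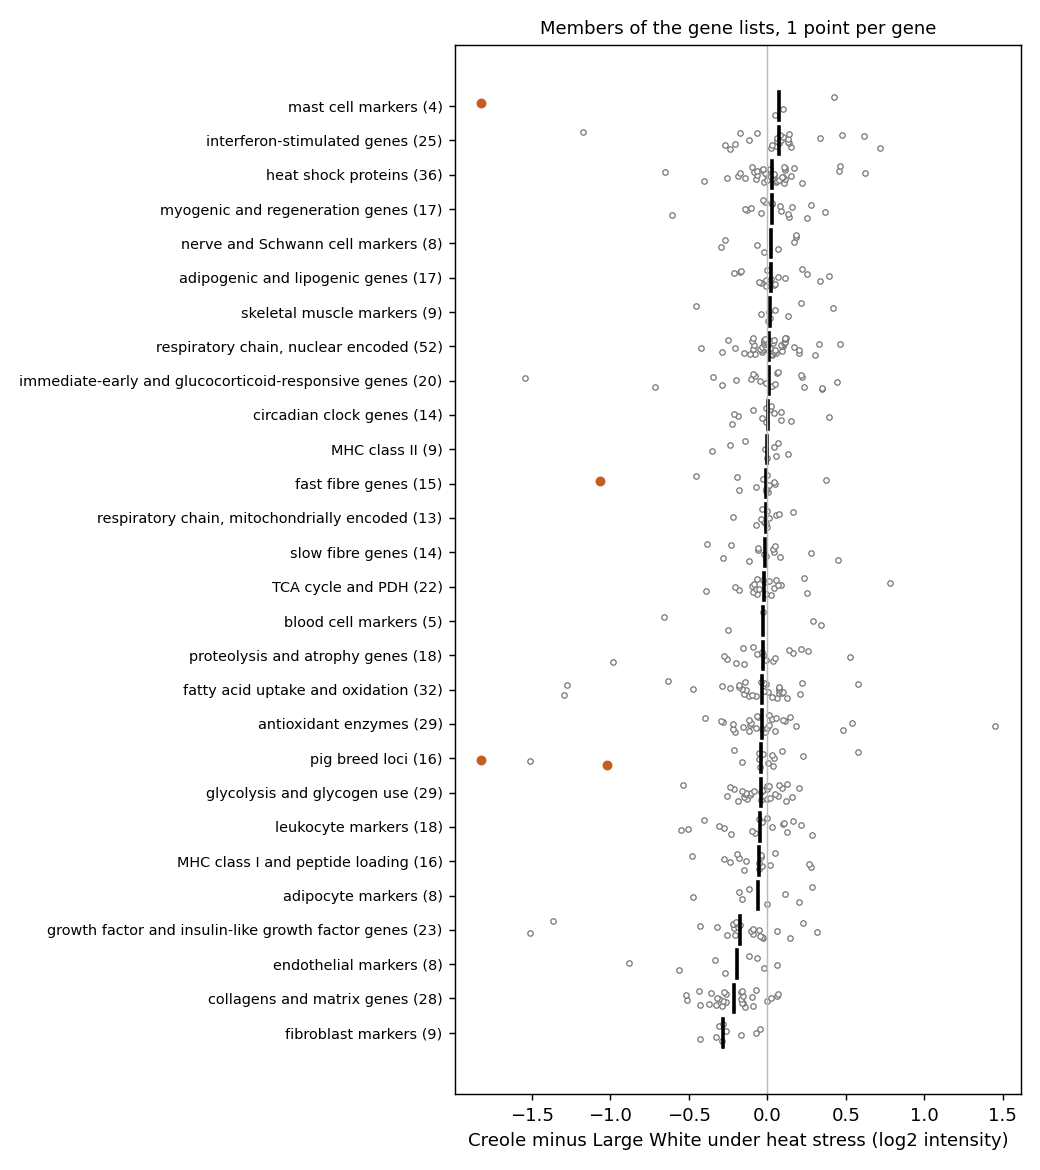
Creole minus Large White difference under heat stress (log2, horizontal axis) for the measured members of 28 gene lists, 1 point per gene by its brightest probe, with the list median as a black bar and called genes filled. Called members are KIT, EDNRB and, on the fast fibre list, PARVB, and the medians run from -0.28 for fibroblast markers to 0.07 for mast cell markers.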

How the data were processed

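Per the file headers the authors hybridised Cy3-labelled cRNA of each muscle to 1-colour Agilent porcine arrays and quantified spots with Feature Extraction 10.10.1.1. The deposited scanner files hold intensity values, and the deposited series table holds log2 values of 40649 probes, which the authors made from median intensities by log2 transformation, quantile normalisation and a filter on low values; its 59 missing values fall where spots were outliers. The scanner files were reprocessed here as those methods state: median intensity, no background subtraction, quantile normalisation over 35 arrays, log2, with 105 outlier spots set missing (lowest r with the deposited values 0.999983). No spot was saturated.

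limma 3.58.1 in R 4.3.3 was fitted with 1 mean per group on all 35 arrays, with moderated (empirical Bayes) tests and p-values adjusted by Benjamini-Hochberg over all probes, at 0.05. The labels do not give pen, slaughter day, father or mother, the random terms of the study's methods, so none was fitted. A gene is represented by its brightest probe. Genes named were the 8 highest and 8 lowest called by that probe, genes with at least 3 probes of which 75% were called, up to 4 called members of each list, the 3 smallest p for the change between environments, and a fixed set. The members and lists were chosen with earlier results of these data known. Probes were named through accessions (8236), the gene name in the files (11749) or synonyms (134), with Sscrofa11.1 tables used for names and gene order only. The fits were tested on simulated data. The number of arrays limits the precision. Replicate numbers follow deposition order.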

Additional observations from a re-analysis of the deposited data

Results flagged for a closer look

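Within a breed, the highest or lowest of the 6 heat stress arrays was set against the range of its group by Dixon's ratio and its 95% critical value, over 80 combinations of a group with a named gene or an array measure. Chance gives about 4 such cases (1 in 20), and 6 were found. KIT had a high Creole array (8.40, next 7.81, ratio 0.657), which still lay below all Large White arrays. OAZ3, by its brightest probe, had a low Large White array (6.24, next 6.93, ratio 0.741), the same array 6 that stood at the Creole level on the called OAZ3 probes. CYCS had a low Creole array (13.20, next 14.31, ratio 0.777), and HSP90AA1 had another (14.83, next 15.49, ratio 0.729). Mean local background was low on 1 Creole array (30.3, next 41.5, ratio 0.649) and on 1 Large White array (28.2, next 44.2, ratio 0.776). These were array 1 of each breed, both on slide 1, so they are not separate cases. The low CYCS value was on Creole HS array 1 too. No named gene had a significant change of the breed difference between environments.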

How the results depend on the processing

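The count of called probes was 116 as reported. It was 74 (38 lower in Creole) with the 12 heat stress arrays alone, 244 (106 higher, 138 lower) with array weights, and 19 (8 higher, 11 lower) when each symbol was reduced to a single probe, which shortened the list of tests and left 69 calls at 24 °C. Scaling to the spike-in controls gave 19 higher and 104 lower and 139 calls at 24 °C, so the share of calls that were higher in Creole depended on this scaling. Leaving out 1 heat stress array gave 70 to 118 calls, 27 to 56 higher and 40 to 66 lower, with 74 without Large White array 2 or 3, 70 without Large White array 4, 76 without Creole array 2 and 73 without Creole array 4. Leaving out both arrays that stood apart on the first component, an alternative chosen after seeing the data, gave 80. The change of the breed difference between environments gave 0 calls under every alternative run. Signs turned only for uncalled genes: MYH7 under 75th percentile scaling (0.00734) and without 1 array (-0.0942 to 0.0424), PRKAG3 under spike-in scaling (-0.0469) and without 1 array (-0.0539 to 0.281), HSPH1 under spike-in scaling (-0.0475) and LYZ without 1 array (-0.189 to 0.456). With the slide as a block, 101 probes were called (fixed) and 123 (random). No paired analysis was possible because the labels carry no replicate numbers, so no pairing of animals is given; the slide blocks are not such pairs.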
